A study of Mus musculus with 8 samples.

Results

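The immunity-related GTPases are interferon-induced proteins that defend mouse cells against intracellular parasites and bacteria. The 7 family genes described here, Irgm1, Irgm2, Igtp, Iigp1, Tgtp1, Tgtp2 and Ifi47, were taken by name from a table of 24972 genes, and all 7 were present. The family works as a pair of classes. The 3 regulatory members (Irgm1, Irgm2 and Igtp) sit on the cell's own membranes and hold the effector members inactive. The 4 effector members (Iigp1, Tgtp1, Tgtp2 and Ifi47) gather on the vacuole around an invading parasite such as Toxoplasma and help to break it open. Transcription of both classes is known to follow interferon through factors that include STAT2, IRF9 and IRF1. The 7 proteins are products of a mouse gene family that has largely been lost in humans.

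RNA sequencing of total RNA was done on untreated primary mouse embryonic fibroblasts, cultured from embryos at embryonic day 14 and passaged 2 times. There were 2 libraries of each of 4 genotypes, namely wild type (WT), Tfam+/- with 1 Tfam allele, Zbp1-/- without the Zbp1 gene, and the double mutant Tfam+/-Zbp1-/-. TFAM packages and transcribes mitochondrial DNA, and ZBP1 is a sensor of nucleic acids, so the design asks what losing 1 Tfam allele does with and without Zbp1. No source used here gives the strain or says if replicate libraries stem from different embryos, so p-values measure the spread between these libraries, which may be technical.

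Library totals were 16752835 to 18303036 normalized counts, the authors' scaled count per gene. All 10 fibroblast markers examined were above 0 in each library. Tfam was at 278 to 424 in the 4 libraries with 1 Tfam allele and at 471 to 675 in the other 4. Zbp1 was at 64.6 and 69.8 in Tfam+/-, and at 0.86 to 3.79 in the 4 Zbp1-/- and Tfam+/-Zbp1-/- libraries, but only at 7.34 and 3.19 in WT, too low to check the Zbp1-/- label against WT. Replicates correlated at 0.992 in WT and in Tfam+/-Zbp1-/-, 0.973 in Tfam+/- and 0.975 in Zbp1-/- (Pearson's r of log2 values across 13267 genes, which are not independent). The differences between replicates in Tfam+/- and in Zbp1-/- ran opposite ways (r = -0.70), which does not tell which libraries are shifted. Results are also given with a term shared by Tfam+/- replicate 1 and Zbp1-/- replicate 2 and from the 6 other libraries. Leaving out the opposite pair instead, a choice made after seeing the data, called 64.5% of all genes in Tfam+/- against WT, beside 15.6% in those 6. Those 6 hold a single Tfam+/- and a single Zbp1-/- library, whose spread is taken to equal that of the other 2 genotypes.

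Of the 7 genes, 6 lie on mouse chromosome 11 in separate groups (RefSeq, GRCm38.p6, the assembly also called mm10). Irgm1 (48865245 to 48871420), Tgtp1 (48985329 to 48992246), Tgtp2 (49057196 to 49064212) and Ifi47 (49076587 to 49096987) form one group. Igtp (58199556 to 58207592) and Irgm2 (58214977 to 58222783) are neighbours 7384 bases apart. Iigp1 is on chromosome 18 (60373616 to 60392634). The classes are therefore not separated by location.

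Promoter sequence is shown because the members are known as interferon-induced genes, and its part in their levels was not tested. RefSeq windows of 250 bases before to 50 bases after the gene start were at hand for 6 genes (Iigp1 had no entry). They were searched on both strands for the core of the interferon-stimulated response element (ISRE), which is GAAA, any 2 bases and GAAA, and is bound by IRF factors, and for the gamma-activated sequence (GAS), TTCNNNGAA, which is known from promoters that respond to interferon gamma. In the stretches below, 5′ to 3′ on the gene's strand, capitals mark matches to either motif.

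Irgm1: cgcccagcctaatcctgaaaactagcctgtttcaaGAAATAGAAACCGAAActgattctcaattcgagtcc

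Irgm2: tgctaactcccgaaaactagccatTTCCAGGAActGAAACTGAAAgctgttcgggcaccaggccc

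Igtp: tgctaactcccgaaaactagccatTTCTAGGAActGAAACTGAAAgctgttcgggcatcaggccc

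Tgtp1: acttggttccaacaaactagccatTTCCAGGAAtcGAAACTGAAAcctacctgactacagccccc

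Tgtp2: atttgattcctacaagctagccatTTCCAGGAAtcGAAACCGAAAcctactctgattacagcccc

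The stretches are chr11:48871415-48871485 (minus strand) for Irgm1, chr11:58214878-58214942 (plus strand) for Irgm2, chr11:58199487-58199551 (plus strand) for Igtp, chr11:48992294-48992358 (minus strand) for Tgtp1 and chr11:49064253-49064317 (minus strand) for Tgtp2. The response element core was in 5 of the 6 windows and in 3.49% of 27025 gene windows of the same length. The gamma-activated sequence, which reads the same on both strands, was in 4 of the 6 and in 8.47% of all. In Irgm2, Igtp, Tgtp1 and Tgtp2 the 2 motifs stood side by side, separated by 2 bases, an arrangement shared by regulatory and effector members. Irgm1 had 2 overlapping matches to the response element core and none to the other motif. Ifi47 had neither in this window. The whole windows of Irgm2 and Igtp were 92.1% identical over aligned bases, and those of Tgtp1 and Tgtp2 80.5%. A match is a description of sequence and no binding was measured.

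**Figure D1:**
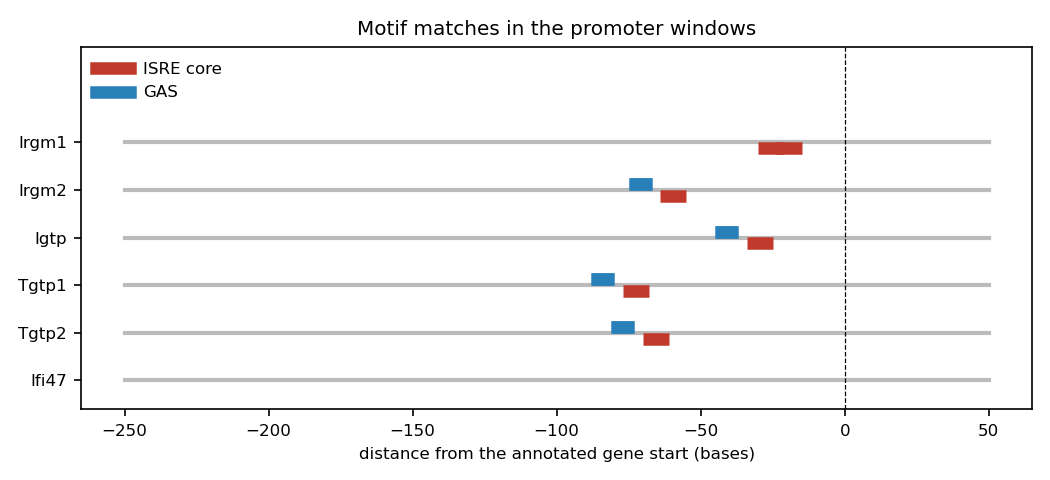
Positions of matches to the ISRE core (red) and the GAS motif (blue) in the promoter windows of 6 genes, in bases from the annotated gene start (dashed line). The 2 motifs are adjacent in Irgm2, Igtp, Tgtp1 and Tgtp2, Irgm1 has only the red one and Ifi47 neither.

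In untreated WT cells all 7 genes already had counts above 0 in both libraries, and Irgm1 was by far the most abundant. Whether both Tgtp1 and Tgtp2 were transcribed is not shown, since the split of reads between these copies is uncertain. Levels between genes are compared per kilobase of the longest protein-coding transcript in the GENCODE M21 annotation. On that scale Irgm1 was at 310 and 298 normalized counts per kb in the WT libraries. Irgm2 followed at 41.5 and 37.6, then Igtp at 29.1 and 30.3. Tgtp1 (19.7 and 26.9) and Ifi47 (23.0 and 18.7) overlapped, as did Iigp1 (9.97 and 10.5) and Tgtp2 (11.1 and 4.11). Taken singly, the regulatory members stood above the effectors in WT. The per-kb levels of Tgtp1 and Tgtp2, near-identical copies, added up to more than that of Igtp in both WT libraries. In Tfam+/- the means per kb ran from 1147 for Irgm1 through 186 for Igtp, 152 for Irgm2, 98.6 for Tgtp1, 72.8 for Ifi47 and 71.8 for Iigp1 to 33.0 for Tgtp2. Igtp was above Irgm2 in both Tfam+/- libraries and below it in both WT libraries. Lengths taken over all annotated exons instead put Iigp1 (5.48) below Tgtp2 (7.29) in WT and brought Irgm1 to 118, beside 37.9 for Irgm2. On those lengths Tgtp1 (20.5) and Tgtp2 together no longer exceeded Igtp (29.7) in WT. Tgtp1 and Ifi47 (15.0) no longer overlapped there.

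Tfam+/- cells, in which Zbp1 was intact, had higher transcript levels of these GTPases than WT cells. All 7 genes were higher in both Tfam+/- libraries than in both WT libraries, by 3.5 to 7.0 times in the ratio of means, and 5 passed the test. The test was limma on log2(normalized count + 1) over 13267 genes with a Benjamini-Hochberg adjusted p under 0.05. This comparison called 0.565% of all genes tested higher, and 23.3% of all genes were higher without overlap between the libraries. The median log2 change of the 7 was 2.07, beside -0.01 over all genes.

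Among the regulatory members, Irgm1, which is also known to act in autophagy, was at 700 and 673 normalized counts in WT and at 2513 and 2667 in Tfam+/-. Its log2 change was 1.91 ± 0.10 (SE; limma, adjusted p 0.0012). Irgm2, found on Golgi membranes, was at 147 and 133 in WT and at 498 and 574 in Tfam+/-, a log2 change of 1.93 ± 0.16 (adjusted p 0.0043). Replicates of these genes lay close together, so the rises were many times the gap between libraries. Igtp, also called Irgm3 and found on the endoplasmic reticulum, went from 58.8 and 61.4 to 384 and 367, a log2 change of 2.62 ± 0.17 (adjusted p 0.0020). Igtp had the highest estimate of the class, and its gap to Irgm2 was not tested.

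Among the effectors, Iigp1, also called Irga6, was at 31.1 and 32.7 in WT and at 169 and 279 in Tfam+/-. Its log2 change was 2.73 ± 0.37 (limma, adjusted p 0.036). Ifi47, also called Irgd, went from 40.8 and 33.2 to 126 and 132, a log2 change of 1.78 ± 0.23 (adjusted p 0.029). Both passed the test. Tgtp1 was at 55.5 and 76.0 in WT and at 239 and 318 in Tfam+/-, a log2 change of 2.07 ± 0.36 that did not pass (adjusted p 0.078). Tgtp2 was at 31.3 and 11.5 in WT and at 52.1 and 133 in Tfam+/-, a log2 change of 2.07 ± 0.63 that did not pass (adjusted p 0.38). The 2 Tgtp genes encode nearly the same protein, known as Irgb6.

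Of the 5 calls, those of Irgm2, Iigp1 and Ifi47 depended on single libraries, while Irgm1 and Igtp passed whichever library was left out. Leaving out 1 library gave 2 to 6 calls. Without WT replicate 1 or WT replicate 2 only Irgm1 and Igtp passed, in fits that called 0.0904% of all genes in either direction. Without either Tfam+/- or either Tfam+/-Zbp1-/- library the calls were the 3 regulatory members, beside 0.234% to 0.505% of all genes, and without either Zbp1-/- library Tgtp1 passed too. All 7 passed when the shared term was added or the 6 libraries were used, in fits that called 15.6% of all genes in either direction. A fit of these 2 genotypes alone gave 4 calls, without Ifi47 (adjusted p 0.074), and called 0.235% of all genes. No setting changed the direction of any of the 7 differences.

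**Figure D2:**
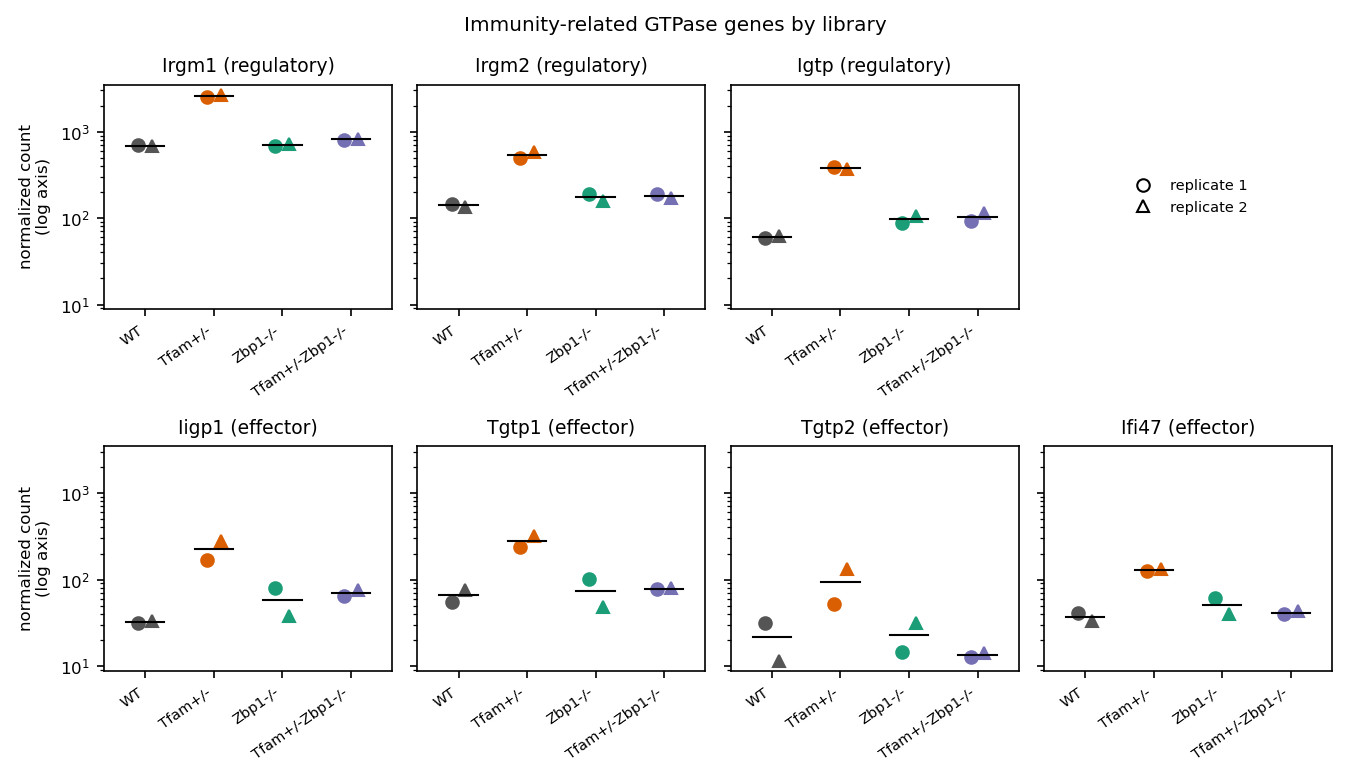
Normalized counts on a log axis for the 7 genes in each library, by genotype, with circles for replicate 1, triangles for replicate 2 and a bar at the mean of 2. Both Tfam+/- libraries stand above all 6 others in every panel, and replicates of Iigp1, Tgtp1 and Tgtp2 lie farther apart than those of Irgm1 in all genotypes but the double mutant, where Tgtp1 does not.

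In cells with 1 Tfam allele, loss of Zbp1 went with lower levels. All 7 genes were lower in both Tfam+/-Zbp1-/- libraries than in both Tfam+/- libraries, at 0.15 to 0.34 of the Tfam+/- mean. The test called 5 of the 7 lower, against 2.32% of all genes, and 13.5% of all genes were lower without overlap. The median log2 change of the 7 was -1.67. Over all genes the median was 0.14 as deposited. Trimmed-mean (TMM) rescaling brought it to 0.02 and put the changes of the 7 at -1.69 to -2.67. Leukocyte markers fell in this comparison too, with values given further on. This comparison and the one above share the Tfam+/- libraries, so opposite directions in them are not separate support.

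Irgm1 was at 797 and 828 in Tfam+/-Zbp1-/-, a log2 change from Tfam+/- of -1.67 ± 0.10 (limma, adjusted p 0.0013). Irgm2 was at 188 and 172, a change of -1.57 ± 0.16 (adjusted p 0.0041). Igtp was at 92.9 and 115, a change of -1.85 ± 0.17 (adjusted p 0.0033). All 3 regulatory members therefore fell. Of the effectors, Ifi47 was at 39.6 and 43.1, a change of -1.62 ± 0.23 (adjusted p 0.012), and Tgtp1 at 77.2 and 80.2, a change of -1.80 ± 0.36 (adjusted p 0.036). Iigp1 was at 64.8 and 76.6, a change of -1.61 ± 0.37 that did not pass (adjusted p 0.060). Tgtp2 was at 12.7 and 14.2, a change of -2.55 ± 0.63 that did not pass (adjusted p 0.068). Iigp1 passed after TMM rescaling (-1.73, adjusted p 0.049) and without either Zbp1-/- library. Without either Tfam+/-Zbp1-/- library only Irgm1 passed, where 0.098% and 0.0905% of all genes were called in either direction, and Tgtp1 was lost without any 1 of the WT, Tfam+/- or Tfam+/-Zbp1-/- libraries. Adding the shared term, or using the 6 libraries, made all 7 pass, where 45.6% and 43.7% of all genes were called in either direction.

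The interaction asks directly whether the Tfam effect depended on Zbp1. It subtracts the Tfam effect in cells with Zbp1 (Tfam+/- against WT) from the Tfam effect in cells without it (Tfam+/-Zbp1-/- against Zbp1-/-). It was below 0 for all 7 genes, with a median of -2.04 on the log2 scale beside 0.00 over all genes. Leukocyte markers (9 of 10 below 0, median -0.67) and epithelial markers (3 of 3 tested below 0, median -1.47) also had negative interactions, none of them called by limma, with 7 and 3 at an unadjusted p under 0.05. Their part in the result was not tested. The test called the 3 regulatory members and none of the 4 effectors, against 0.445% of all genes called below 0. All 7 had an unadjusted p under 0.05 in limma. The interaction was -1.70 ± 0.14 for Irgm1 (limma, adjusted p 0.015), -1.88 ± 0.22 for Irgm2 (adjusted p 0.026) and -2.52 ± 0.23 for Igtp (adjusted p 0.019). The effectors had interactions of the same order with wider errors. They were -2.04 ± 0.33 for Ifi47 (adjusted p 0.062), -2.38 ± 0.53 for Iigp1 (adjusted p 0.12), -1.89 ± 0.50 for Tgtp1 (adjusted p 0.18) and -2.70 ± 0.88 for Tgtp2 (adjusted p 0.26). Removing either WT library, either double mutant library or Zbp1-/- replicate 2 left 0 of the 7 called, and 0 of all genes tested. In those fits Irgm1 ranged from -1.73 to -1.66, Irgm2 from -2.02 to -1.81 and Igtp from -2.67 to -2.36. Irgm2 was also lost without Tfam+/- replicate 1 (-1.98). With the shared term, which gives the same estimates as the 6 libraries by construction, all 7 passed, beside 16.9% of all genes.

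**Figure D3:**
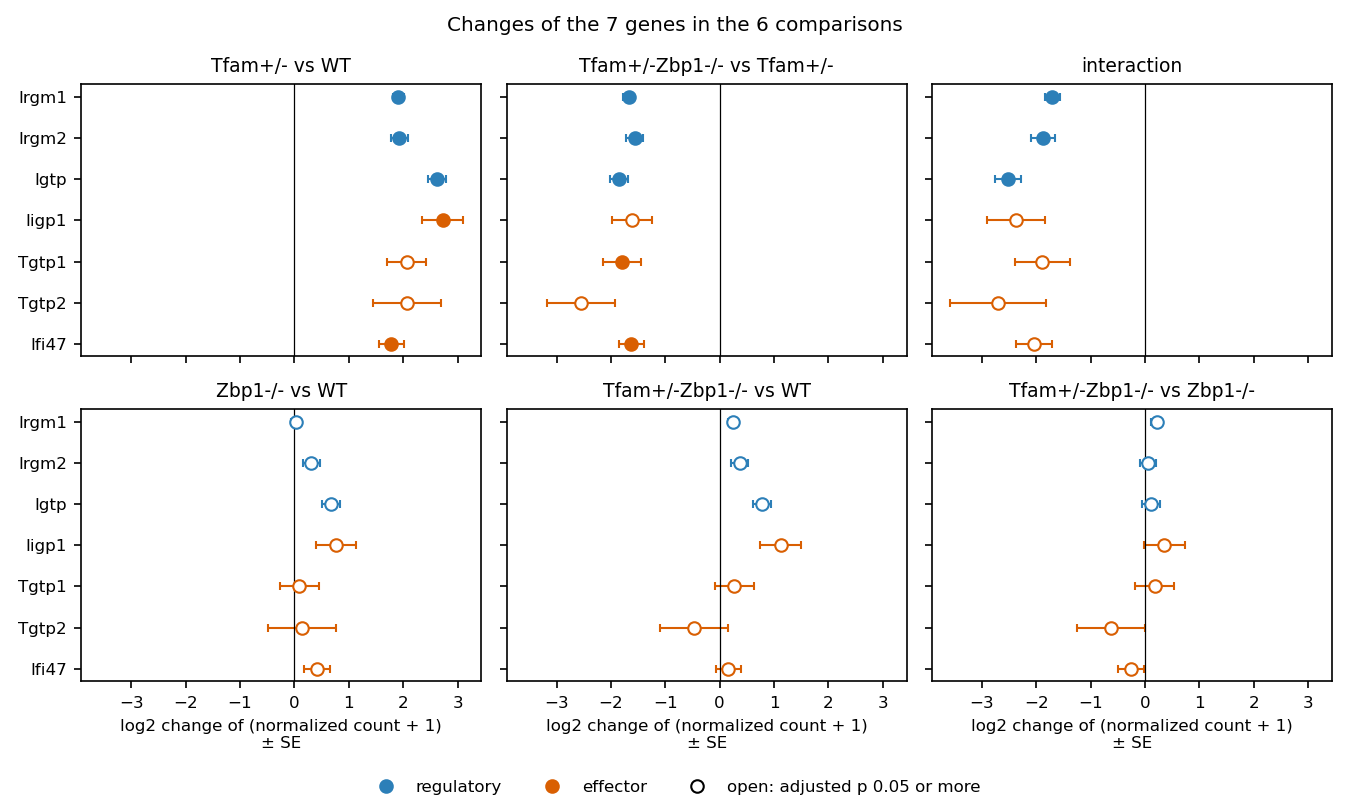
Log2 change of normalized count + 1 with its SE for each gene in 5 comparisons and the interaction, in blue for regulatory and orange for effector members, filled where the adjusted p was under 0.05. The top row is far from 0 for all 7 genes and the bottom row, in which no point is filled, is near 0 for most.

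With both Tfam alleles present, no family member passed the test for loss of Zbp1. The comparison of Zbp1-/- with WT called 0 of the 7 by limma, with 1 at an unadjusted p under 0.05, against 1.06% of all genes called. Igtp had the lowest p, with 88.0 and 105 in Zbp1-/-, above both WT libraries, and a log2 change of 0.67 ± 0.17 (adjusted p 0.13). Irgm1, at 683 and 720, differed from WT by 0.03 ± 0.10 (adjusted p 0.86), a direction that turned under TMM (-0.081) and median-of-ratios (-0.091) rescaling. Iigp1 was at 78.8 and 38.2, Tgtp1 at 100 and 47.7 and Ifi47 at 60.4 and 40.4. All 3 were lower in Zbp1-/- replicate 2. Tgtp2 went the other way, at 14.5 and 31.1, and Irgm2 was at 192 and 156. In the 6 libraries, which keep only Zbp1-/- replicate 1, 5 of 7 were called higher (Irgm2, Igtp, Iigp1, Tgtp1 and Ifi47), where 34.5% of all genes were called. With the shared term 3 were called higher (Irgm2, Igtp and Iigp1), where 35.6% of all genes were called.

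Double mutant cells were then set against WT. There 0 of the 7 were called by limma, with 3 at an unadjusted p under 0.05, and 1.38% of all genes were called. Irgm1, Irgm2, Igtp, Iigp1 and Tgtp1 were above WT in both libraries, as were 58.8% of all genes. The largest of these gaps were in Iigp1, at a log2 change of 1.12 ± 0.37 (adjusted p 0.28), and Igtp, at 0.78 ± 0.17 (adjusted p 0.087). Irgm1, Irgm2, Igtp and Iigp1 passed when only these 2 genotypes were fitted, when the shared term was added and when 6 libraries were used. Those fits called 45.9%, 42.5% and 44.9% of all genes. No difference between genotypes was resolved between Tfam+/-Zbp1-/- and Zbp1-/- cells. There limma called 0 of the 7, with 0 at an unadjusted p under 0.05, beside 0.415% of all genes called. The changes ran from -0.63 ± 0.63 for Tgtp2 to 0.35 ± 0.37 for Iigp1. Irgm1, at 0.21 ± 0.10, was called with the shared term (0.21, adjusted p 0.011) and in the 6 libraries (0.25, adjusted p 0.0049), where 23.8% and 23.5% of all genes were called. Leaving out the opposite pair called 4 of the 7 there, with 62% of all genes.

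The classes were compared within each library, where library scaling largely cancels. The mean log2 level of the 4 effectors minus that of the 3 regulatory members was -2.21 and -2.45 for the WT replicates and -2.61 and -2.05 for Tfam+/-. It was -2.11 and -2.52 for Zbp1-/- and -2.56 and -2.50 for the double mutant. These values are not per length. The double mutant lay just below both WT libraries, and every other pair of genotypes overlapped. From WT to Tfam+/- the difference of class means moved by 0.01, against a pooled SD between replicates of 0.26. With class medians it moved by 0.33, and with a pseudocount of 5 by -0.086. From Tfam+/- to Tfam+/-Zbp1-/- it moved by -0.20. The log2 changes in Tfam+/- were 1.91 to 2.62 in the regulatory class and 1.78 to 2.73 in the effector class. The difference between the classes thus turned with the summary used and was not resolved, although the regulatory class gave 3 of 3 calls in the interaction and the effector class 0 of 4. The regulatory genes replicated more closely. Their replicates differed by 0.05 to 0.31 on the log2 scale over the 4 genotypes, and those of the effectors by 0.05 to 1.36.

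**Figure D4:**
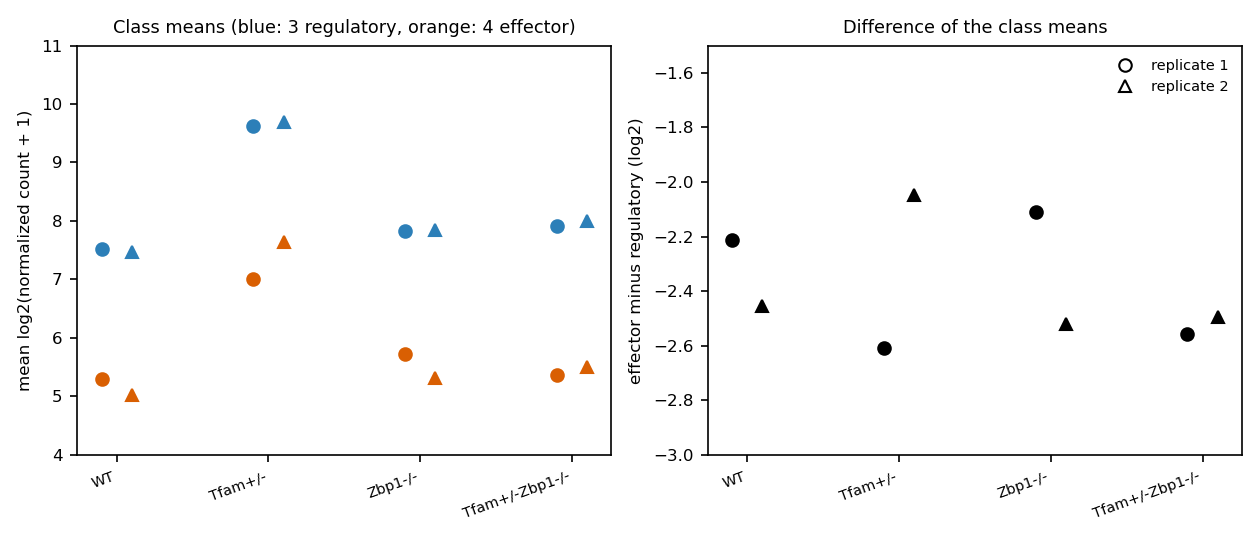
Left, mean log2(normalized count + 1) of the 3 regulatory (blue) and 4 effector (orange) members in each library. Right, the effector mean minus the regulatory mean, which ranges from -2.61 to -2.05 with both ends in Tfam+/-.

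Tgtp1 and Tgtp2 need a separate reading because they are near-identical copies. Their longest annotated transcripts were 99.8% identical over 2810 aligned bases. Of all runs of 31 bases in the Tgtp1 transcript 5.8% occurred in no other gene, and 5.29% of those in Tgtp2. The other members were far more distinct, at 83.6% for Igtp, which shares sequence with Irgm2, to 97.1% for Irgm1. Tgtp2 made up 36.0% and 13.2% of the summed pair in the WT replicates, 17.9% and 29.6% for Tfam+/-, 12.6% and 39.5% for Zbp1-/-, and 14.1% and 15.1% for the double mutant. The share varied as much within a genotype as between genotypes, so the split between the copies is uncertain. The sum replicated closely in WT (86.8 and 87.6) and in Tfam+/-Zbp1-/- (89.9 and 94.4). It was 291 and 452 in Tfam+/- and 115 and 78.8 in Zbp1-/-. As 1 entry, the pair rose in Tfam+/- against WT by 2.04 ± 0.26 (limma, adjusted p 0.024) and changed by -1.96 ± 0.26 from Tfam+/- to Tfam+/-Zbp1-/- (adjusted p 0.0085). Both passed, and its interaction, -2.09 ± 0.36, did not (adjusted p 0.072).

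**Figure D5:**
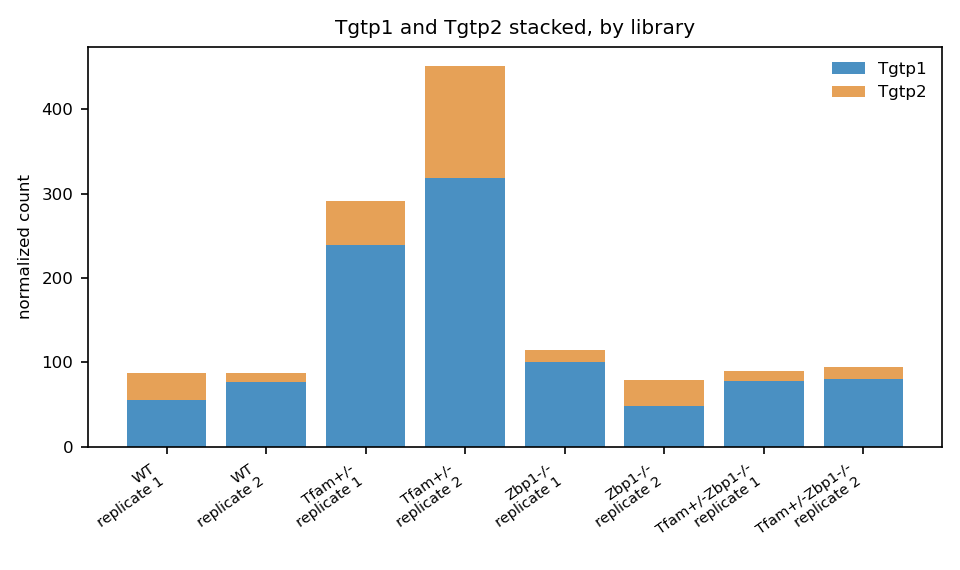
Normalized counts of Tgtp1 (blue) and Tgtp2 (orange) stacked for each library. The stacks have nearly the same height in the WT replicates, at 86.8 and 87.6, while the orange share differs.

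Other genes of the family gave a more mixed picture. Of 12 further family names listed, 10 were in the table and 6 had a mean of at least 10 and were tested. In Tfam+/- against WT 0 of 6 were called by limma, with 4 at an unadjusted p under 0.05 and a median log2 change of 1.04. Gm4951 was at 7.22 and 1.97 in WT and at 35.2 and 53.8 in Tfam+/-, a log2 change of 3.17 ± 0.54 (limma, adjusted p 0.078). Gm4951 and Gm12185 reached the mean of 10 only through their high Tfam+/- libraries. Their rises are therefore no support, and the count and median above include them. Gm12250, which encodes Irgb10, an effector that targets vacuoles and bacteria, fell below the filter. WT replicates had 5.00 and 5.71, Tfam+/- 20.6 and 18.3, Zbp1-/- 3.08 and 3.00, and the double mutant 0.969 and 2.01. Its Tfam+/- libraries were thus the highest too. Irgq, a divergent relative, was at 869 and 860 in WT and 966 and 863 in Tfam+/-, a log2 change of 0.08 ± 0.11 (adjusted p 0.69).

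Guanylate-binding proteins are larger interferon-induced GTPases that act on the same vacuoles. Of 11 listed, 5 were tested, with a median log2 change of 1.95 in Tfam+/- against WT. There 3 were called higher (Gbp2, Gbp3 and Gbp7), beside 0.565% of all genes. In Tfam+/-Zbp1-/- against Tfam+/- 4 of 5 were called lower, beside 2.32% of all genes, with a median of -1.48. Gbp3 had 36.7 and 37.8 normalized counts in the WT replicates, 235 and 323 for Tfam+/-, 41.9 and 48.0 for Zbp1-/-, and 72.3 and 61.5 for the double mutant. Gbp2 had an interaction of -1.85 ± 0.18 (limma, adjusted p 0.019). The interaction was called below 0 for 2 of the 5, beside 0.445% of all genes.

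Among 16 genes of interferon receptors and signalling, all tested, 3 were called higher in Tfam+/- than in WT, beside 0.565% of all genes. These 3 were Stat2 (1.69 ± 0.13, limma adjusted p 0.0034), Irf9 (1.48 ± 0.10, adjusted p 0.0031) and Nlrc5 (1.76 ± 0.16, adjusted p 0.0072). Stat2 and Irf9 encode parts of the factor that binds interferon response elements, and NLRC5 is an activator of MHC class I genes. The same 3 were called lower in Tfam+/-Zbp1-/- than in Tfam+/-, beside 2.32% of all genes. Ifnar1, a type I interferon receptor chain, was called higher there (0.65 ± 0.12, limma adjusted p 0.030), as were 3.32% of all genes. Irf1 was at 410 and 434 in WT and at 669 and 514 in Tfam+/- and was not called. None of 10 interferon genes reached the filter. Ifnb1 and Ifng were listed at 0 in all 8 libraries. The ATG8 conjugation genes encode the autophagy machinery that is known to place effector members correctly on vacuoles. Of these 12, 0 were called by limma in any comparison, with 1 at an unadjusted p under 0.05 in Tfam+/- against WT and a median of 0.09.

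Leukocytes express these GTPases strongly, and their markers were present in the cultures. All 10 leukocyte markers listed were above 0 in every library, with a summed level of 4824 to 4880 in WT, 5654 to 6133 in Tfam+/-, 2780 to 3048 in Zbp1-/- and 2486 to 2510 in Tfam+/-Zbp1-/-. Of the 10, 0 were called by limma in Tfam+/- against WT, with 6 at an unadjusted p under 0.05 and a median log2 change of 0.39. In Tfam+/-Zbp1-/- against Tfam+/- 9 of the 10 were called lower, beside 2.32% of all genes, with a median of -1.19. Their median change from WT to the double mutant was -0.81, with 4 called lower, beside 0.482% of all genes. The part of leukocyte RNA in the GTPase levels was not tested, and in bulk RNA fewer cells of a type and less RNA per cell cannot be told apart. None of these other lists was complete in every library, with 0 to 4 of 6 markers at 0. Epithelial markers summed to 186 to 187 in Tfam+/-Zbp1-/- and 326 to 493 in Tfam+/-, endothelial markers to 318 to 337 and 396 to 461, and skeletal muscle markers to 363 to 369 and 599 to 913.

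The 10 genes whose log2 levels were most like the mean profile of the 7 over the 8 libraries were Trim21, Parp14, Rnf213, Trim30d, Gbp2, Parp9, Dtx3l, Ddx58, Trim30a and Vat1l, with Pearson's r from 0.991 down to 0.977. This is a description of ranked genes, since the 2 Tfam+/- libraries stood apart from the other 6 and set most of each r. Over the 6 libraries of the other genotypes the same genes had r from 0.61 to 0.90. Within the family, each gene's r with the mean of the other 6 was 0.92 to 0.99, except 0.79 for Tgtp2. Over the 6 libraries without Tfam+/- it was 0.89 for Irgm2 and 0.17 for Tgtp1, and -0.47 for Tgtp2.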

How the data were processed

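The members, gene lists and alternatives were chosen with earlier results of these data known. The authors aligned reads with STAR in RNAseq Alignment 2.0.0 of BaseSpace to mm10 with RefSeq genes and used RNA-seq Differential Expression 1.0.0, per the series' design text. STAR 2.6.1a and Salmon are named in the submitters' processing notes. What the authors deposited is a table of normalized counts, treated here as a signal. The sources used here do not state how reads were counted, whether strand was used or how values were scaled, so overlapping genes (Ifi47 with Gm12188, Tgtp1 with Gm42074) and shared sequence (4.76% of the runs of 31 bases of Ifi47 are in Olfr56) leave values uncertain. Whole reads were not recovered: 22.2% to 34.9% of values up to 20 reads lay within 0.01 of a whole number, so no count test was run.

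Genes with a mean of at least 10 were tested, 13267 in all, 7 of 7 members among them. limma 3.58.1 in R 4.3.3 (eBayes with a trend) fitted log2(normalized count + 1) for the 4 genotypes together, without a covariate, with 4 residual and 2.77 prior degrees of freedom. Tests were two-sided, with Benjamini-Hochberg adjustment over all genes. The shared term left 3 and the 6 libraries 2 residual degrees of freedom, while the prior degrees of freedom rose to 15.1 in both. With 2 libraries against 2, the smallest exact permutation p is 0.333. The script was tested on simulated data. Named genes were the 7 members, the listed pathway genes, and the 10 genes of highest correlation with the members. In the interferon signalling list, 1 planned gene is not reported here. RefSeq (GRCm38.p6) held 24407 of the 24970 names. A protein motif comparison was planned, and protein sequence was not used here.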

Additional observations from a re-analysis of the deposited data

Results flagged for a closer look

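Limma's interaction test asked whether the response to Tfam heterozygosity differed with and without Zbp1. It called 3 of the 7 genes, beside 0.445% of all genes called below 0. All 7 were below 0 with an unadjusted p under 0.05, and the 4 effectors, not called, had wider errors. The interaction, on the log2 scale, was -1.70 for Irgm1, -1.88 for Irgm2 and -2.52 for Igtp. In each, both Tfam+/- libraries were above both WT libraries, while Tfam+/-Zbp1-/- differed from Zbp1-/- by 0.21, 0.05 and 0.11. All 3 calls were lost, with those of all other genes, on removing either WT library, either double mutant library or Zbp1-/- replicate 2, and with the replicate number as a block.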

How the results depend on the processing

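Another pseudocount (5 or 0.1), another filter (none, or a mean of 50), both rescalings and a prior without trend left the count of members called within 1.5 times in each of the 6 comparisons. The filter at 50 left 6 members, without Tgtp2. Ifi47 reached the mean of 50 only through its high Tfam+/- libraries. Its mean was 129 there, beside 37.0 in WT, 50.4 in Zbp1-/- and 41.3 in Tfam+/-Zbp1-/-. Its calls under that filter are therefore no support. Leaving out 1 library gave 2 to 6 calls in Tfam+/- against WT, 1 to 6 in Tfam+/-Zbp1-/- against Tfam+/- and 0 to 3 in the interaction. It gave 0 to 0 in the other comparisons. With the shared term the counts were 3 in Zbp1-/- against WT, 4 in Tfam+/-Zbp1-/- against WT, 1 in Tfam+/-Zbp1-/- against Zbp1-/- and 7 in the interaction. In the 6 libraries they were 5, 4, 1 and 7. With the opposite pair (Tfam+/- replicate 2 and Zbp1-/- replicate 1), chosen after seeing the data, they were 1, 4, 3 and 7 with a shared term and 1, 4, 4 and 7 in 6 libraries, in fits that called 42.5% to 71.9% of all genes. Fitting only WT and Tfam+/-Zbp1-/- gave 4. The replicate numbers showed no shift in the same direction across genotypes: the correlation of replicate deviations between genotypes ran from -0.70 to 0.06. These values cannot tell whether libraries of the same number were made together. With the replicate number as a block, 3 members and 0.211% of all genes were called in Tfam+/- against WT, and 0 members and 0 genes in the interaction.

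For single members, the directions that turned were all in comparisons where no member was called. Irgm1 in Zbp1-/- against WT was -0.081 and -0.091 under TMM and median-of-ratios rescaling, and -0.0073 in the 6 libraries. Tgtp1 there was -0.019 and -0.029 after the rescalings, and Tgtp2 -0.38 in the 6 libraries. The opposite pair gave Tgtp1 -0.28 with a shared term and -0.44 in 6 libraries, and in 6 libraries Igtp -0.018 and Ifi47 0.030 in Tfam+/-Zbp1-/- against Zbp1-/-. In Tfam+/-Zbp1-/- against Zbp1-/-, the shared term and the 6 libraries gave -0.069 and -0.091 for Irgm2, -0.083 and -0.16 for Iigp1, and -0.19 and -0.35 for Tgtp1, and adding both copies gave -0.047 for Tgtp1. Without 1 library, Zbp1-/- against WT ranged over -0.0073 to 0.069 for Irgm1, -0.44 to 0.62 for Tgtp1 and -0.53 to 0.83 for Tgtp2, and Tfam+/-Zbp1-/- against WT over -1.16 to 0.20 for Tgtp2. Tfam+/-Zbp1-/- against Zbp1-/- ranged over -0.091 to 0.20 for Irgm2, -0.047 to 0.26 for Igtp, -0.16 to 0.87 for Iigp1, -0.35 to 0.71 for Tgtp1 and -0.54 to 0.030 for Ifi47. The effector minus regulatory difference moved from WT to Tfam+/- by -0.086 with a pseudocount of 5 and 0.33 with class medians, and from WT to Zbp1-/- by -0.0014 without Ifi47. The cause was not tested.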
